A study of Mus musculus with 6 samples.

Results

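Cells make cholesterol from acetyl-CoA through the mevalonate pathway, and fatty acids from the same precursor. In mammals the genes of both routes are switched on by the SREBP transcription factors, which are held in the endoplasmic reticulum with their escort SCAP and released to the nucleus when sterols run low, while the INSIG proteins keep the complex in place when sterols are plentiful. Fibroblasts growing in culture use these routes to supply membrane lipids. The 33 genes described here were taken by name: 18 of sterol synthesis, 5 of SREBP control, 8 of fatty acid synthesis and desaturation, and 2 of sterol transport. Of these, 32 had a probe on the array, with 55 probes in all, against 17658 named genes with a probe in the whole series. Acat2, the cytosolic thiolase at the start of the pathway, had no probe under its symbol. A probe was tested where at least 2 of the 6 arrays showed it above background, which left 40 probes of 28 of these genes among 11659 probes of 7407 named genes.

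The cells were mouse embryonic fibroblasts in 3 groups of 2 samples: wild type, IKKa-/- (IKKa-null below), and IKKa+/+reconstituted (reconstituted below). IKKa is a kinase of NF-kB signalling, and the series asks which genes depend on it. All groups grew in serum-containing medium and were harvested below full confluency, with no further treatment given in the labels. Age and strain are not given in the sources used here, nor how the cells were reconstituted or whether each group is 1 line, and the gene of IKKa is not analysed here. Nothing says whether the 2 samples of a group were grown separately, and the p-values cover the spread between these samples alone, and that spread may be technical.

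The groups differed in more than the IKKa label. SV40 large T antigen, an oncoprotein of a virus, had a target that read 4431.6 and 6076.1 intensity units in wild type and between 88.6 and 212.3 on the other 4 arrays. The neomycin resistance target read 106.5 and 117.8 in wild type and between 2230.7 and 3458.1 in the other groups. Xist, expressed from the inactive X chromosome, was above background in wild type alone, and the Y-linked Eif2s3y in IKKa-null and reconstituted cells alone. Each difference from wild type below therefore cannot be told apart from these. IKKa-null and reconstituted cells differed in a Moloney murine sarcoma virus repeat, with 3260.7 and 3524.9 units against 292.0 and 219.5, and that comparison cannot be told apart from this difference either. Of 11 fibroblast markers 10 were above background on some array and Lum on none. Vim, a fibroblast marker, read 5.5 to 6.24 on the log2 scale over the 6 arrays, close to background. It was above background only on the IKKa-null arrays. No difference of Vim between groups passed the test (limma adjusted p of 0.134 to 0.534). With 2 arrays per group and readings this close to background, that shows neither a difference nor its absence. The summed intensity of the 11, without background correction, lay at 6939 to 7575 units in wild type, 7344 to 8351 in IKKa-null and 19790 to 26190 in reconstituted cells. Fewer cells of a type and less RNA per cell cannot be told apart in such bulk samples.

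Promoter sequence is shown for 4 sterol enzymes: Hmgcs1, which holds the SREBP motif searched, Mvd and Lss, which were lower in IKKa-null cells than in both other groups, and Cyp51, which differed between reconstituted and wild-type cells under every setting tried. Each is the 250 bases before the gene's start, 5′ to 3′ on the gene's strand, from RefSeq (build GRCm38.p6). Capitals mark CCAAT on either strand, the core of the site bound by NF-Y, a factor known to work beside SREBPs, and in Hmgcs1 also the sterol response element TCACNCCAC.
Hmgcs1 (chr13:119690101-119690350, plus strand): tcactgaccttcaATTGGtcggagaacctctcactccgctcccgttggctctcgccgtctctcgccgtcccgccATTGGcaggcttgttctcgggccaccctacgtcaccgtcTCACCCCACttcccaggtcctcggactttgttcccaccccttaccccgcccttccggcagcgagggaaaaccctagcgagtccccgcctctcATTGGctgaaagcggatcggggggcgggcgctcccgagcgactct
Mvd (chr8:122443423-122443672, minus strand): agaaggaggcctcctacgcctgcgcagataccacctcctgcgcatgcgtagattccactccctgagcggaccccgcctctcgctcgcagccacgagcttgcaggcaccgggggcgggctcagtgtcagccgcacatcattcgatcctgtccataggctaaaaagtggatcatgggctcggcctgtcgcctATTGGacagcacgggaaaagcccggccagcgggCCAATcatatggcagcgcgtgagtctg
Lss (chr10:76531355-76531604, plus strand): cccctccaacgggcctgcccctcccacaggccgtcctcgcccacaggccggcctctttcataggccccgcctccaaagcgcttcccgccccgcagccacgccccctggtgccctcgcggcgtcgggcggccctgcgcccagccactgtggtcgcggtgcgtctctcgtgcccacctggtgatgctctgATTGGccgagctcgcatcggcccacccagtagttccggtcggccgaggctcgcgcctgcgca
Cyp51 (chr5:4104698-4104947, minus strand): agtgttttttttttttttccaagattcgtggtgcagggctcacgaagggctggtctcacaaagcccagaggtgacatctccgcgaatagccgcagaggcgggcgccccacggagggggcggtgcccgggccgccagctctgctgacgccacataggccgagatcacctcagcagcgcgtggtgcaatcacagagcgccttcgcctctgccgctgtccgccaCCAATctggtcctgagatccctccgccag
These windows held CCAAT 3 times before Hmgcs1, 2 times before Mvd, and once each before Lss and Cyp51. The Hmgcs1 window alone among those of the 15 sterol synthesis genes with a promoter in the table held TCACNCCAC, against 1.22% of 27025 genes. CCAAT was found on either strand in the windows of 14 of these 15 genes (93.3%), of 4 of 5 SREBP control genes and of 1 of 5 fatty acid genes, against 37.5% of all genes. The E-box CACGTG, searched likewise, was found in 3 of the 15 sterol synthesis genes (20.0%) and in 6.86% of all genes. Where a gene had several start sites, a motif in any window counted. Such a match describes letters in the window and shows no binding.

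In reconstituted against wild-type cells, 13 of the 28 tested genes were higher and 0 were lower (limma, adjusted p under 0.05 over all 11659 probes). That is 46.4% higher, where 15.7% of all 7407 genes were called higher, 21.3% lower and 37.0% in either direction. The genes were chosen with earlier results of these data known, so such shares, here and below, describe the list and do not test it. The list was also brighter: 25 of the 28 genes were above background on all 6 arrays, as were 7802 of the 11659 probes. The 13 were Hmgcs1, Fdps, Sqle, Lss, Cyp51, Tm7sf2, Msmo1 and Nsdhl of sterol synthesis, Stard4 of sterol transport, Srebf2 and Insig1 of SREBP control, and Elovl6 and Scd1 of fatty acid synthesis. The median log2 change of the 28 genes was 0.50, beside -0.14 over all named genes. The count was not stable. With median scaling in place of quantile normalization, 3 of the 13 calls were kept, those of Cyp51, Tm7sf2 and Insig1. Without wild-type replicate 2 there were also 3, those of Cyp51, Tm7sf2 and Msmo1. Without reconstituted replicate 1 or 2 there were 8 and 6. Testing all probes without the filter ended the calls of Hmgcs1, Srebf2 and Stard4, and a fit of those groups alone ended Elovl6 and Srebf2. In each of these settings 0 of the genes were called lower. Wild-type replicate 1 gave the higher signal of its pair in 22 of the 28 genes, by a median of 0.14 on the log2 scale, while over all tested probes the median difference between those arrays was -0.01. In IKKa-null cells replicate 1 was the brighter in 21 of the 28 (median 0.09), and in reconstituted cells in 10 (median -0.06).

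In reconstituted against IKKa-null cells, 4 of the 28 (14.3%) were higher and 0 were lower. Of all genes, 6.90% were called higher, 7.44% lower and 14.3% in either direction. The 4 were Mvd, Lss and Tm7sf2 of sterol synthesis and Scd1, a fatty acid desaturase. The median log2 change was 0.36, beside -0.02 over all genes. Median scaling left Lss and Tm7sf2, as did leaving out IKKa-null replicate 2.

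In IKKa-null against wild-type cells the calls went both ways: Cyp51, Msmo1 and Fads2 were higher and Mvk, Mvd and Lss were lower. These 6 are 21.4% of the 28. Of all genes 29.1% were called, 13.6% higher and 15.5% lower, so the members' share did not exceed that of all genes. With 28 genes the gap between these shares is not read as a result. The median log2 change was 0.24, beside -0.12 over all genes. Median scaling left 0 of the 6 calls, as did leaving out wild-type replicate 2. Leaving out 1 other array of these groups left 1 call each: Fads2 without IKKa-null replicate 2, Fads2 again without wild-type replicate 1, and Mvk without IKKa-null replicate 1. Cyclic loess, the matrix values, an offset of 50, no filter on dim probes, a fit of those groups alone and the mean over a gene's probes each ended between 1 and 4 of the calls. All 3 comparisons draw on the same 6 arrays, each sharing a group with the others.

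The order of the groups was also uneven. The highest mean lay in reconstituted cells for 18 of the 28 genes (64.3%), against 28.3% of all named genes. Both reconstituted arrays stood above all 4 other arrays for 14 of the 28 (50%), against 15.6% of all genes. Of those 14, 9 were sterol synthesis genes: Hmgcs1, Mvd, Fdps, Sqle, Lss, Cyp51, Tm7sf2, Msmo1 and Nsdhl.

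**Figure D1:**
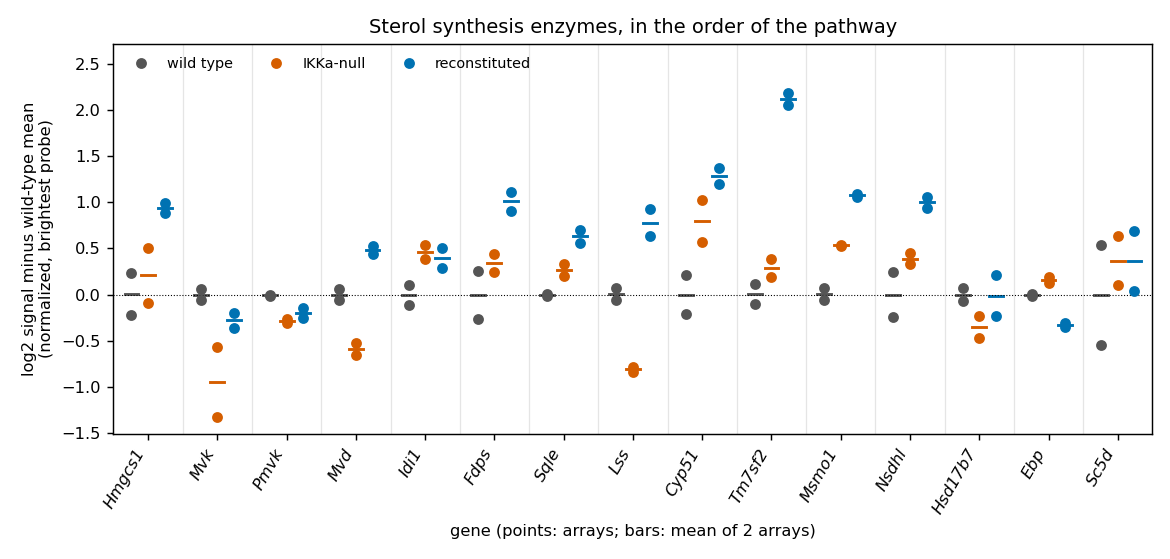
Log2 normalized signal of the brightest probe of each tested sterol synthesis gene, minus its wild-type mean, for each of the 6 arrays (points), with the mean of the 2 arrays of a group as a bar. Reconstituted arrays lie above all others for 9 of the 15 genes. IKKa-null arrays lie below wild type for Mvk, Mvd and Lss, the 3 genes called lower, and also for Pmvk and Hsd17b7, which were not called.

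The sterol synthesis genes are given in the order of the pathway, each by its brightest probe, as log2 normalized signal on wild-type, IKKa-null and reconstituted replicates 1 and 2 in turn. Of the 15 tested, 8 were higher in reconstituted than in wild-type cells (median change 0.63), 3 were higher in reconstituted than in IKKa-null cells (median 0.54), while in IKKa-null against wild-type cells 2 were higher and 3 lower (median 0.26). The shares called were 53.3% and 20% higher in the first pair of comparisons, beside 15.7% and 6.90% of all genes, and 33.3% in either direction in the last, near the 29.1% of all genes.

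Hmgcs1, the synthase that makes HMG-CoA, read 12.54 and 12.09 in wild type, 12.82 and 12.22 in IKKa-null and 13.30 and 13.19 in reconstituted cells. Both reconstituted arrays were the highest, and wild type and IKKa-null overlapped. The signal was 1.91-fold higher in reconstituted than in wild-type cells (log2 change 0.93, SE 0.257, limma adjusted p = 0.0286). The call was lost without wild-type replicate 2 (log2 change 0.71) and without either reconstituted replicate (0.88 and 0.99).

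Mvk, mevalonate kinase, read 7.66 and 7.54 in wild type, 7.03 and 6.27 in IKKa-null and 7.24 and 7.40 in reconstituted cells. All 4 other arrays were below both wild-type arrays. It fell by 0.95 on the log2 scale in IKKa-null cells (SE 0.264, limma adjusted p = 0.0355), with IKKa-null replicate 2 the lowest array, close to background. Without that replicate the change was -0.57 and was not called, and without wild-type replicates 1 and 2 it was -0.89 and -1.01, also not called. Pmvk, the next kinase, read between 6.55 and 6.86 on the 6 arrays and was not called in any comparison.

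Mvd, the decarboxylase that yields isopentenyl pyrophosphate, read 6.97 and 6.85 in wild type, 6.39 and 6.26 in IKKa-null and 7.35 and 7.44 in reconstituted cells. The groups did not overlap, with IKKa-null lowest and reconstituted highest. The signal was 2.10-fold higher in reconstituted than in IKKa-null cells (log2 change 1.07, SE 0.168, limma adjusted p = 0.00816), a call lost without IKKa-null replicate 2 (log2 change 1.01). It fell by 0.58 on the log2 scale from wild type to IKKa-null cells (adjusted p = 0.0394), with no call once any wild-type or IKKa-null array was left out (-0.65 to -0.52). Its difference of 0.49 between reconstituted and wild-type cells did not pass the test (adjusted p = 0.0579). The IKKa-null readings of Mvd lay close to background, which limits the size of its changes from that group. The rise from IKKa-null to reconstituted cells was 0.83 with an offset of 50 and 0.60 with the deposited matrix values. The change from wild type to IKKa-null cells was -0.43 and -0.30 in these settings, neither called.

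Fdps, farnesyl pyrophosphate synthase, read 11.47 and 10.95 in wild type, 11.65 and 11.45 in IKKa-null and 12.12 and 12.32 in reconstituted cells. The reconstituted arrays stood above the rest, and wild type and IKKa-null overlapped. The difference of reconstituted from wild-type cells was 2.02-fold (log2 change 1.01, SE 0.223, limma adjusted p = 0.0132), and was not called without wild-type replicate 2 (0.75) or reconstituted replicate 2 (0.92). Idi1, the isomerase that acts just before it, read 5.75 to 6.40, close to background, and was not called.

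Sqle, squalene epoxidase, which carries out the first oxygenation, read 10.42 and 10.40 in wild type, 10.74 and 10.61 in IKKa-null and 10.97 and 11.11 in reconstituted cells. The groups did not overlap, wild type being lowest and reconstituted highest. It was 1.55-fold higher in reconstituted than in wild-type cells (log2 change 0.63, SE 0.167, limma adjusted p = 0.0253). A second probe gave 0.80 (adjusted p = 0.0161). The first probe's call was lost without either wild-type replicate (0.64 and 0.62) or without reconstituted replicate 2 (0.56).

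Lss, lanosterol synthase, which closes the sterol rings, read 8.53 and 8.40 in wild type, 7.68 and 7.62 in IKKa-null and 9.39 and 9.09 in reconstituted cells. It was lowest in IKKa-null and highest in reconstituted cells, with no overlap. The signal was 3.01-fold higher in reconstituted than in IKKa-null cells (log2 change 1.59, SE 0.182, limma adjusted p = 0.0023), and this was called in all 14 alternatives run, with changes from 1.25 to 1.74. It fell by 0.82 on the log2 scale in IKKa-null against wild-type cells (SE 0.182, adjusted p = 0.0172), a call lost when any 1 array of those groups was left out (-0.88 to -0.75). It rose by 0.77 in reconstituted against wild-type cells (adjusted p = 0.0168), a call lost without either wild-type replicate (0.83 and 0.71) or without reconstituted replicate 1 (0.62).

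Cyp51, the demethylase of lanosterol, read 10.00 and 9.58 in wild type, 10.82 and 10.36 in IKKa-null and 11.16 and 10.99 in reconstituted cells. The groups did not overlap, wild type being lowest. Reconstituted cells were 2.44-fold above wild type (log2 change 1.29, SE 0.236, limma adjusted p = 0.00694), called in all 14 alternatives, with changes from 1.08 to 1.5. A second probe of Cyp51 gave 0.79 (adjusted p = 0.0123). IKKa-null cells were 1.75-fold above wild type (log2 change 0.80, adjusted p = 0.0421), but the second probe's 0.35 was not called (adjusted p = 0.164) and the call was lost whichever array was left out (0.57 to 1.04).

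Tm7sf2, a sterol reductase that acts after Cyp51, read 5.86 and 5.65 in wild type, 5.94 and 6.14 in IKKa-null and 7.81 and 7.94 in reconstituted cells. It was above background on neither wild-type array, on 1 IKKa-null array and on both reconstituted arrays. Reconstituted cells were therefore at least 3.04-fold above wild type, where the dim group is held at the lowest signal above background (log2 change 2.12, SE 0.181, limma adjusted p = 0.000444). Over IKKa-null cells the log2 change was 1.84 (adjusted p = 0.0013), a size that rests partly on an IKKa-null array not above background. Both differences were called in all 13 alternatives that tested the probe, and a second probe gave 1.12 and 1.39 (adjusted p = 0.0462 and 0.0461).

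Msmo1, the sterol methyl oxidase, read 10.93 and 11.06 in wild type, 11.52 and 11.53 in IKKa-null and 12.05 and 12.08 in reconstituted cells. The 3 groups stood apart by more than their replicates differed. It was 2.11-fold higher in reconstituted than in wild-type cells (log2 change 1.07, SE 0.163, limma adjusted p = 0.00374), and lost that call under median scaling alone (0.96). Its rise of 0.53 in IKKa-null over wild-type cells (adjusted p = 0.0487) lay near the threshold and was lost in all 6 fits that left out an array (0.46 to 0.60).

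Nsdhl, the X-linked dehydrogenase that works with Msmo1, read 10.37 and 9.89 in wild type, 10.58 and 10.46 in IKKa-null and 11.07 and 11.19 in reconstituted cells. Reconstituted cells were 2.0-fold above wild type (log2 change 1.0, SE 0.209, limma adjusted p = 0.0108), a call lost without wild-type replicate 2 (0.76). Its other 2 tested probes gave 0.58 and 0.92 (adjusted p = 0.046 and 0.0104), so all 3 were called. X-linked genes are named as such because the groups differed in Xist.

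The remaining sterol genes gave no call. Hsd17b7, a keto-reductase of the same step, read 8.26 to 8.94. Ebp, the X-linked sterol isomerase, read 8.5 and 8.46 in reconstituted cells, below the other 4 arrays (8.79 to 9.0), a difference of -0.49 from IKKa-null cells that did not pass the test (limma adjusted p = 0.096). Sc5d, the sterol desaturase, read 5.5 to 6.74, with the replicates of wild type 1.09 apart. Hsd17b7, Ebp and Sc5d were not called in any of the 3 comparisons. Dhcr7, the last reductase, was above background on 1 IKKa-null array alone, and Fdft1, squalene synthase, on none, so neither was tested.

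Stard4 carries sterols between membranes. It read 10.57 and 10.06 in wild type, 11.02 and 10.47 in IKKa-null and 11.44 and 11.18 in reconstituted cells. Wild type and IKKa-null overlapped and reconstituted cells were highest, 1.99-fold above wild type (log2 change 0.99, SE 0.265, limma adjusted p = 0.0261), which was not called without wild-type replicate 2 (0.73) or without reconstituted replicate 1 or 2 (0.86 and 1.12). A second probe rose in both other groups over wild type, by 1.02 in IKKa-null (adjusted p = 0.0231) and 1.31 in reconstituted cells (adjusted p = 0.00804). Abca1, which exports cholesterol, was not above background on any array.

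**Figure D2:**
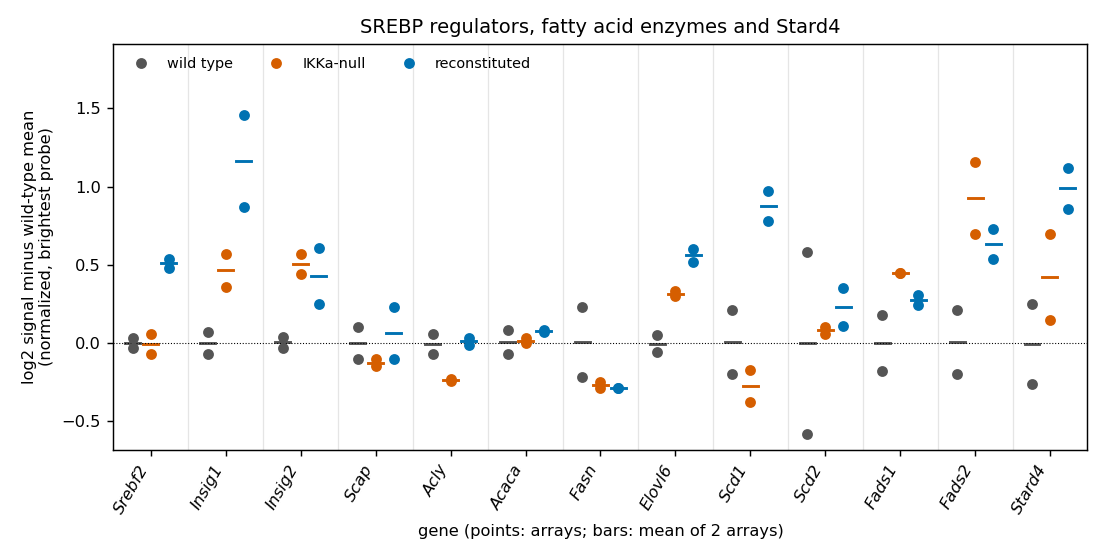
The same display for the tested SREBP control genes, fatty acid genes and Stard4: log2 normalized signal of each array minus the wild-type mean (points) and the mean of 2 arrays (bars). On these brightest probes, reconstituted arrays are highest for Srebf2, Insig1, Elovl6, Scd1 and Stard4, and no difference of Acly, Acaca or Scap was called. The second probes of Insig1 and Elovl6, not shown here, had higher means in IKKa-null than in reconstituted cells.

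Among the SREBP control genes, 2 of the 4 tested were higher in reconstituted than in wild-type cells, and no brightest probe was called in the other comparisons. Of all genes, 15.7% were called higher in reconstituted than in wild-type cells and 37.0% in either direction. With only 4 genes tested, the share of 50% is not read as a result. Srebf2, the SREBP that mainly drives sterol genes, read 8.26 and 8.20 in wild type, 8.29 and 8.16 in IKKa-null and 8.71 and 8.77 in reconstituted cells. On this probe wild type and IKKa-null overlapped, with a difference of 0.00 (SE 0.165), and reconstituted cells were 1.42-fold above wild type (log2 change 0.51, SE 0.165, limma adjusted p = 0.048). That call was lost in all 6 fits that left out an array (0.48 to 0.54). A second Srebf2 probe read 7.48 and 7.91, 8.64 and 8.44, and 9.01 and 8.66 in the same order, with rises over wild type of 0.85 in IKKa-null (adjusted p = 0.0301) and 1.14 in reconstituted cells (adjusted p = 0.00881). The remaining probe gave 0.63 in IKKa-null and 0.92 in reconstituted cells over wild type, neither called (adjusted p = 0.173 and 0.0567). In IKKa-null cells 2 of the 3 probes thus had a positive change and the brightest had 0.00.

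Insig1, itself an SREBP target that retains SCAP, read 7.17 and 7.03 in wild type, 7.67 and 7.46 in IKKa-null and 8.56 and 7.97 in reconstituted cells. The groups did not overlap. It was 2.24-fold higher in reconstituted than in wild-type cells (log2 change 1.16, SE 0.234, limma adjusted p = 0.00956), and was not called without wild-type replicate 2 (1.09). Its second probe gave 0.68 and was not called (adjusted p = 0.234). Insig2, its relative, was not called on the brightest probe, which read 8.23 and 8.30 in wild type and 8.51 to 8.87 elsewhere. Its second probe read 6.58 and 6.66 in wild type, 8.18 and 7.97 in IKKa-null and 7.52 and 7.47 in reconstituted cells, and was called higher than wild type in both (log2 changes 1.46 and 0.87, adjusted p = 0.00169 and 0.00867). Scap, the escort, read 9.09 to 9.47 with no call, and Srebf1, the SREBP more tied to fatty acid genes, was not above background on any array.

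Of the 8 fatty acid genes tested, 2 were higher in reconstituted than in wild-type cells, and 1 each was higher in the other comparisons, with medians of 0.25, 0.11 (reconstituted over IKKa-null) and 0.04 (IKKa-null over wild type). With so few genes these shares of 25%, 12.5% and 12.5% lie near the 15.7%, 6.90% and 13.6% of all genes called higher. The enzymes that build palmitate were not called in any comparison. Acly, which supplies cytosolic acetyl-CoA, read 11.15 to 11.45. Acaca, acetyl-CoA carboxylase, read 10.76 to 10.91, and its difference of reconstituted from wild-type cells was 0.07 (SE 0.165). Fasn, fatty acid synthase, read 12.20 on wild-type replicate 2 and 11.68 to 11.75 on the other 5 arrays.

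Elovl6, which lengthens palmitate, read 7.56 and 7.67 in wild type, 7.95 and 7.92 in IKKa-null and 8.14 and 8.22 in reconstituted cells. The groups did not overlap and stood in that order. It was 1.48-fold higher in reconstituted than in wild-type cells (log2 change 0.56, SE 0.164, limma adjusted p = 0.0342), a call lost in all 6 fits that left out an array (0.50 to 0.62). A second probe was above background on the IKKa-null arrays alone. It was called higher than wild type in IKKa-null and reconstituted cells, with no measured fold. As it passed the filter only through the group where it was highest, these calls are not read as support. The brightest probe's 0.32 in IKKa-null cells was not called.

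Scd1, the desaturase that makes oleate from stearate, read 11.01 and 10.60 in wild type, 10.63 and 10.42 in IKKa-null and 11.58 and 11.77 in reconstituted cells. Both reconstituted arrays were above the rest, and wild type and IKKa-null overlapped. It was 2.21-fold higher in reconstituted than in IKKa-null cells (log2 change 1.15, SE 0.208, limma adjusted p = 0.0145) and 1.82-fold higher than in wild type (0.87, adjusted p = 0.0179). The first call was lost without IKKa-null replicate 1 (1.25), IKKa-null replicate 2 (1.04) or reconstituted replicate 2 (1.05), and the second without wild-type replicate 2 (0.66) or reconstituted replicate 2 (0.77). Scd2, a close relative, read 14.13 and 12.97 in wild type, so far apart that the other groups (13.61 to 13.90) lay between, and it was not called.

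Fads2, the desaturase at the entry to long polyunsaturated fatty acids, read 8.46 and 8.05 in wild type, 9.41 and 8.95 in IKKa-null and 8.98 and 8.79 in reconstituted cells. Wild type was lowest, and the other groups overlapped. The signal was 1.90-fold higher in IKKa-null cells than in wild type (log2 change 0.93, SE 0.235, limma adjusted p = 0.0265), and the second probe gave 1.09 (adjusted p = 0.00688). The first probe's call was lost without IKKa-null replicate 1 (0.70) and also without wild-type replicate 2 (0.72). In reconstituted over wild-type cells the second probe was called (0.87, adjusted p = 0.012) and the first was not (0.64, adjusted p = 0.072). Fads1, the desaturase of the next steps, read 12.64 and 12.28 in wild type, 12.91 on both IKKa-null arrays and 12.70 and 12.77 in reconstituted cells, without a call.

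**Figure D3:**
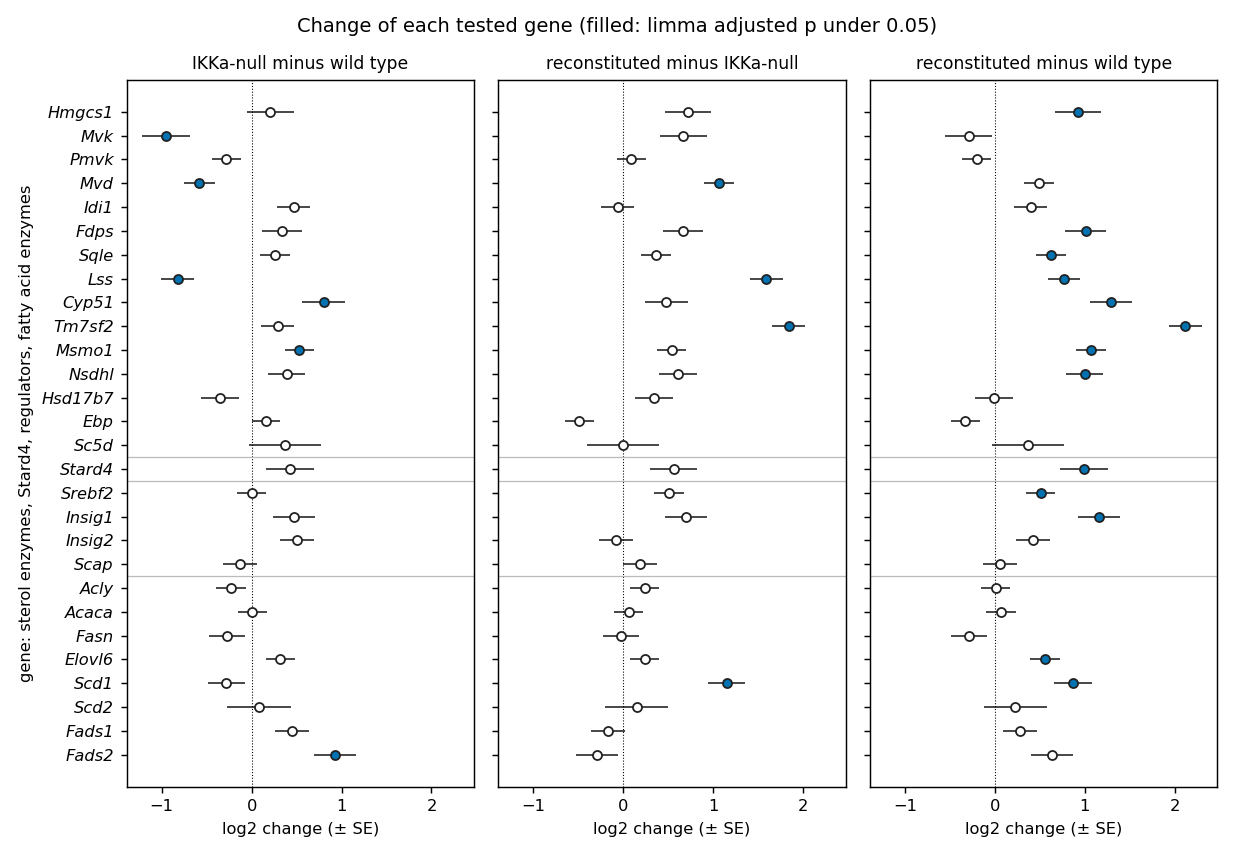
Log2 change with its standard error for each of the 28 tested genes in the 3 comparisons, brightest probe, filled where limma's adjusted p was under 0.05. The 13 filled points of reconstituted minus wild type all lie right of 0, while the 6 of IKKa-null minus wild type fall on both sides.

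For 10 genes more than 1 probe was tested. Over all 11659 probes, 36.4% were called in reconstituted over wild-type, 29.0% in IKKa-null over wild-type and 13.4% in reconstituted over IKKa-null cells. In reconstituted over wild-type cells every tested probe of 6 of them was called, those of Sqle, Cyp51, Tm7sf2, Nsdhl, Elovl6 and Stard4, although the second Elovl6 probe was below background in both of those groups and so adds no measured agreement. Calls differed between probes for the other 4, Srebf2, Insig1, Insig2 and Fads2. All of these probes had a positive change there. In IKKa-null over wild-type cells all probes were called for 1 gene, Fads2, and calls differed for 5: Cyp51, Srebf2, Insig2, Elovl6 and Stard4. In the last 4 of these 1 dimmer probe was called and the brightest was not, and for Srebf2 the dimmest of its 3 was not called either. The dimmer Elovl6 probe passed the filter through the IKKa-null arrays alone, so its call is not read as support. In reconstituted over IKKa-null cells all probes were called for Tm7sf2, and calls differed for Nsdhl. There the probes of Insig1 (0.70 and -0.23) and Elovl6 (0.24 and -0.22) went in opposite directions, with no call.

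**Figure D4:**
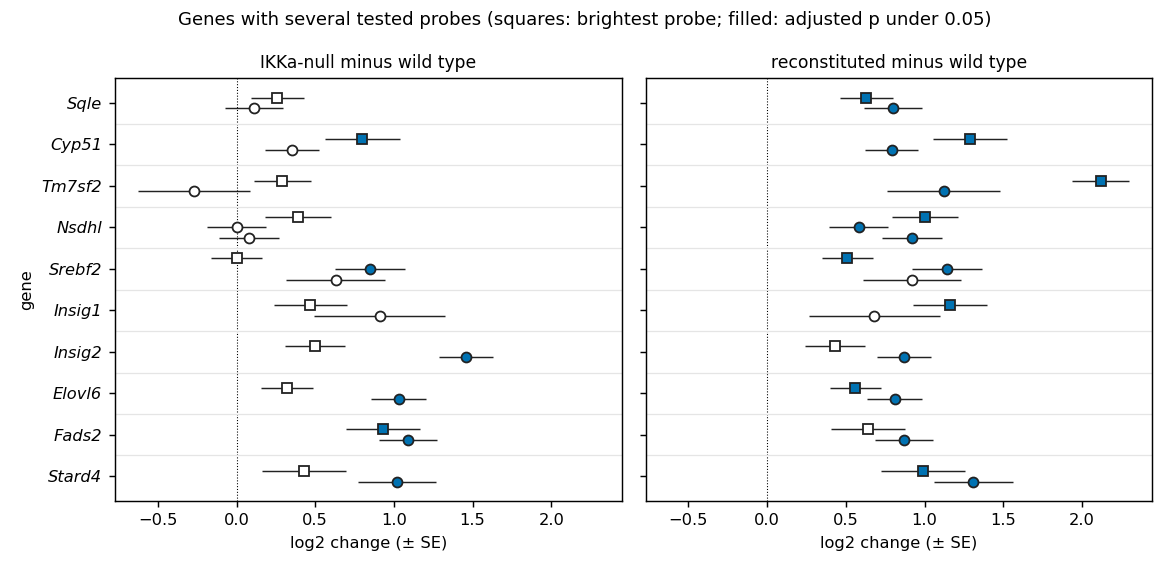
Log2 change with its standard error for every tested probe of the 10 genes with several, in IKKa-null minus wild type and reconstituted minus wild type. Squares are the brightest probe and circles the others, filled where adjusted p was under 0.05. On the right all probes lie above 0, and on the left the probes of Srebf2 and Insig2 lie far apart.

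Other genes of these routes, from lists of 56 genes of which 36 were tested, were called in both directions. In reconstituted against wild-type cells 9 were higher and 7 were lower (44.4% called, against 37.0% of all genes). In reconstituted against IKKa-null cells 3 were higher and 3 lower (16.7% against 14.3%), and in IKKa-null against wild-type cells 6 were higher and 4 lower (27.8% against 29.1%). These shares lie near those of all genes. By list (sterol and isoprenoid, fatty acid and lipid, cholesterol handling), 33.3%, 50% and 44.4% were called in reconstituted against wild-type cells. Against IKKa-null cells they were 11.1%, 11.1% and 33.3%, and in IKKa-null against wild-type cells 44.4%, 22.2% and 22.2%. With 9 to 18 genes per list these shares are not read as results. Of 9 further sterol and isoprenoid genes, 3 were higher in reconstituted than in wild-type cells: Osbp, an oxysterol binding protein (log2 change 1.33, limma adjusted p = 0.0233), Cyb5r3, which passes electrons to sterol oxidases (0.72, adjusted p = 0.017), and Ggps1, geranylgeranyl pyrophosphate synthase (0.69, adjusted p = 0.038). Mbtps1, the protease that makes the first cut in SREBPs, was higher in reconstituted than in IKKa-null cells (0.81, adjusted p = 0.036). Ggps1, Cyb5r3 and Cyb5b were higher in IKKa-null cells than in wild type (1.05, 0.80 and 0.68, adjusted p = 0.0111, 0.0149 and 0.0302), and Erlin1, which takes part in sterol-controlled protein turnover, fell by 0.81 (adjusted p = 0.015).

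Of 18 further fatty acid and lipid genes, 3 were higher and 6 lower in reconstituted than in wild-type cells. Lpin1, a phosphatidate phosphatase, was higher by at least 1.93-fold in reconstituted cells (limma adjusted p = 0.000987) and at least 1.22-fold in IKKa-null cells (adjusted p = 0.00377), wild type being below background. Slc25a1, the mitochondrial citrate carrier, rose by 1.18 in reconstituted cells (adjusted p = 0.00963). Acsl5, an acyl-CoA synthetase, rose over wild type by 1.29 in IKKa-null (adjusted p = 0.0032) and 1.16 in reconstituted cells (adjusted p = 0.00407). Fads3, a relative of the desaturases, and Hacd3, a dehydratase of fatty acid elongation, each fell by 1.06 in reconstituted against wild-type cells (adjusted p = 0.00461 and 0.00533). Hacd2, another such dehydratase, fell by 0.80 there (adjusted p = 0.0261), and the other 3 that were lower were Me1, Agpat2 and Dgat1. Against IKKa-null cells 0 were higher and 2 lower in reconstituted cells, Fads3 and Agpat2, an acyltransferase of phospholipid synthesis, each by -0.76 (adjusted p = 0.0318 and 0.0336). In IKKa-null against wild-type cells Hacd3 and the elongase Elovl5 were the 2 called lower (-0.87 and -0.67, adjusted p = 0.0134 and 0.0296).

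Of 9 further genes of cholesterol handling, 3 were higher and 1 lower in reconstituted than in wild-type cells. The lipoprotein receptors Vldlr and Lrp1 rose by 1.23 and 1.04 (limma adjusted p = 0.00907 and 0.0056), and also over IKKa-null cells, by 1.23 and 0.75 (adjusted p = 0.0197 and 0.0367). Lpcat3, a phospholipid acyltransferase, rose by 0.96 in reconstituted against wild-type cells (adjusted p = 0.0263). Scarb1, the HDL receptor, fell in both groups against wild type, by 0.83 in reconstituted and 0.87 in IKKa-null cells (adjusted p = 0.0118 and 0.0128). Cav1, the coat protein of caveolae, was 2.30-fold higher in IKKa-null cells than in wild type (log2 change 1.20, adjusted p = 0.00274) and fell by 1.40 from IKKa-null to reconstituted cells (adjusted p = 0.0023).

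Markers of fibroblasts and of other cell types differed between the same groups. Of the 10 fibroblast markers tested, 5 were higher in reconstituted than in wild-type cells and 5 higher than in IKKa-null cells: Thy1, Pdgfra, Dcn, Col3a1 and Fn1 in both. That is 50% each, beside 15.7% and 6.90% of all genes called higher. Between IKKa-null and wild-type cells 30% of the 10 were called, beside 29.1% of all genes. With 10 markers these shares are not read as results. In IKKa-null against wild-type cells Fn1 was higher (log2 change 1.02) and Pdgfra and Col1a1 were lower (-2.28 and -1.13), and of the epithelial markers Krt7 was higher by at least 4.69-fold and Krt14 fell by 1.85. Of 9 adipocyte markers with a probe, 2 were above background on any array, and Adipoq, Cidec, Fabp4, Lep, Plin1, Pparg and Retn were not. The tested one, Lpl, fell by 1.83 in reconstituted against wild-type cells (limma adjusted p = 0.00613), and the summed intensity of the list was 1271 to 1282 in wild type, 1225 to 1342 in IKKa-null and 1088 to 1202 in reconstituted cells. All 3 epithelial markers tested, Krt7, Krt14 and Krt19, were called lower in reconstituted cells than in both other groups, though Krt7 was below background in both reconstituted and wild-type cells, with a summed intensity over 7 markers of 742 to 798 against 1178 to 1420, and Cdh1, Krt5, Krt8 and Krt18 were not above background. Macrophage and blood markers summed to 634 to 738 units in wild type, 788 to 912 in IKKa-null and 710 to 745 in reconstituted cells. Of the 6 with a probe, 2 were above background on some array, and Ptprc, Adgre1, Itgam and Tyrobp on none. The tested one, Cd14, was above background on 4 arrays, both IKKa-null arrays among them. It was not called (limma adjusted p = 0.0692 for IKKa-null against wild type). Of the 5 hepatocyte markers, Apoa1 was above background on the IKKa-null arrays alone and was not called. Alb, Ttr, Serpina1a and Cyp7a1 were not above background, and the list summed to 572 to 633 units on all arrays. None of 5 endothelial markers was above background (497 to 595). All these sums are of uncorrected intensities, in which background targets had medians of 100.8 to 114.45 units per array. The hepatocyte and endothelial sums, and the epithelial sum in reconstituted cells, thus lay near background. The part of these differences in the results for sterol and fatty acid genes was not tested.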

How the data were processed

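Biotin-labelled RNA of 6 samples had been hybridised to Illumina mouse bead arrays, 1 array per sample. Per the file headers, the deposited array files hold average bead intensities from BeadStudio 1.5.0.34 without normalization. The authors' deposited matrix holds the same intensities after quantile normalization, as a comparison of both sets of values showed. The steps the authors took to make it were not given in the sources used here. Array targets were matched to the annotated matrix probes by their values (46116 of 46120).

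With limma 3.58.1 in R 4.3.3, intensities were background-corrected (nec, offset 16, 394 targets for immune-receptor segments, spikes or non-mouse sequences as negative controls, since the files hold no detection values), quantile normalized and put on the log2 scale. Detected means that under 1% of those targets were at or above a probe. Median signals were 111.1 to 123.1 intensity units, against 100.8 to 114.45 for these targets, and the number of arrays limits precision. A linear model of group means over the 6 arrays (lmFit, eBayes, 3 residual degrees of freedom, prior 4.01) gave two-sided tests with p-values adjusted by Benjamini-Hochberg, and was checked on simulated data. A gene is represented by its brightest probe. Array values are given for each gene called in at least 1 comparison, and up to 3 other pathway genes per list, comparison and direction. Genes and lists were chosen with earlier results of these data known. Alternatives changed the normalization, background, filter, samples, replicate block and probe choice.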

Additional observations from a re-analysis of the deposited data

How the results depend on the processing

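Median scaling gave 1895, 924 and 2364 called probes in IKKa-null against wild type, reconstituted against IKKa-null and reconstituted against wild type, in place of 3383, 1559 and 4247. In the same order it gave 0, 2 and 3 of the 28 genes in place of 6, 4 and 13. It moved the share of called probes that were higher from 51.6% to 70.3% in the first comparison and from 48.4% to 37.9% in the second, and the median of all probes from -0.07 to 0.04 and from -0.01 to -0.17. The median change of the 28 genes in the second comparison became 0.12 with it, and 0.24 with no filter on dim probes, in place of 0.36. In the third it became 0.57 with cyclic loess, 0.37 with the deposited matrix values, 0.43 with an offset of 50 and 0.42 with no filter, in place of 0.50. Without the filter 2 genes were called in the first comparison, and with the matrix values 8 in the second. Leaving out 1 array gave 1497 to 3512, 554 to 1275 and 2094 to 3767 probes, and 0 to 4, 2 to 4 and 3 to 11 genes. Not called in any setting, the change of Hmgcs1 from wild type to IKKa-null (0.21) ranged from -0.09 to 0.51 with 1 array left out, and that of Srebf2 (0.00) from -0.07 to 0.06, with 0.09 under median scaling and 0.10 under cyclic loess. Beyond fewer arrays or more probes tested, the cause was not tested. With the replicate number as a block, 5, 4 and 13 genes were called: Msmo1 was lost in the first comparison (adjusted p = 0.0543), and in the third Srebf2 was lost (0.0541) and Fads2 gained (0.03). Deviations of same-numbered arrays correlated across probes at 0.298 between wild type and IKKa-null and at 0.37 between IKKa-null and reconstituted cells. Between wild type and reconstituted cells the value was 0.051. An effect shared by arrays of the same number is thus not excluded. The labels do not say that the numbers pair samples, and the main fit did not pair them. Idi1, Sc5d, Tm7sf2 and the IKKa-null readings of Mvd lay close to background, as did IKKa-null replicate 2 of Mvk, which limits their values.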

Other observations

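Ch25h, which makes an oxysterol that suppresses SREBPs, read 8.5 and 5.76 on the wild-type arrays, 5.44 and 5.06 in IKKa-null and 6.02 and 5.15 in reconstituted cells on the log2 scale. Only wild-type replicate 1 and reconstituted replicate 1 were above background, and the gene was not called (limma adjusted p = 0.118 for IKKa-null against wild type). The same wild-type arrays differed by 1.16 for Scd2 and by 0.52 for Fdps, replicate 1 being brighter in both. Sc5d (5.5 and 6.59) and Fasn (11.75 and 12.20) went the other way. Over the 28 genes, 22 were brighter on replicate 1, and the median difference was 0.14.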
